A study of Mus musculus with 10 samples.

Results

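The variable segments of the immunoglobulin heavy chain, the Ighv genes, were read in RNA sequencing of sorted B lineage cells from C57BL/6 mice. Members were all genes whose symbol starts with Ighv and whose GENCODE gene type starts with IG_. This rule gave 185 genes, of which 174 were listed among the 30205 genes of the count files and 11 were not. The 174 fall into 16 families by the number after Ighv, and comprise 113 V genes, 59 V pseudogenes and 2 segments typed IG_LV_gene. No estimated count fell on 29 of them in any library, and 2 symbols are each shared by 2 gene identifiers.

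The 10 libraries form 5 groups of 2. Control cells were wild type. NF-kB-activated cells carried Rosa-NIKdeltaT3flSTOP with CD19Cre, a Cre recombinase driven by a B cell promoter that switches on a truncated NIK, the kinase upstream of noncanonical NF-kB. Doubly activated cells carried Rosa-NIKdeltaT3flSTOP, Rosa-Notch2ICN, which encodes the intracellular part of Notch2, and CD19Cre. The label of these 3 groups is marginal zone precursor B cell, from lymph node. Cells with Rosa-Notch2ICN and CD19Cre alone are labelled as marginal zone B cells of the lymph node and are called Notch-labelled here (Notch-activated in the plots). All 4 groups are labelled pre-malignant, and lymphoma cells were taken from lymphoma tissue of mice with both Rosa alleles and CD19Cre. The sources used here give no age. Whether the 2 libraries of a group stem from different animals is not stated in the labels, and p-values therefore reflect the spread between these libraries alone, which may be technical.

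A B cell builds its heavy chain gene by joining 1 V, 1 D and 1 J segment on chromosome 12, and its descendants inherit that join. A mixed population of B cells therefore transcribes many V segments, whereas the offspring of a single B cell share 1. V segments lie in families of related sequence, and the joined segment is transcribed from its own promoter as part of the mRNA with the constant gene.

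The V exons that carry the main differences are shown first, because how far a segment differs from its nearest relative sets how surely short reads can be assigned to it. Each line gives the last bases of the V exon in the sense direction, 5′ to 3′, from the GENCODE M21 transcripts (GRCm38, minus strand of chromosome 12). Capitals mark bases that differ from the segment named in brackets, and in Ighv1-55 also 1 base opposite a gap; bases beyond the end of the alignment are in lower case. Ighv1-55 led the Notch-labelled libraries (chr12:115208095-115208394), and Ighv1-84 was the largest minor segment there (chr12:115980702-115981001). Ighv1-11 led the lymphoma libraries (chr12:114612243-114612542), and Ighv8-12 was the largest minor segment there (chr12:115647961-115648255). Ighv1-34 (chr12:114851190-114851489) was higher in NF-kB-activated than in control libraries, whereas doubly activated libraries overlapped control.
Ighv1-55 (against Ighv1-62): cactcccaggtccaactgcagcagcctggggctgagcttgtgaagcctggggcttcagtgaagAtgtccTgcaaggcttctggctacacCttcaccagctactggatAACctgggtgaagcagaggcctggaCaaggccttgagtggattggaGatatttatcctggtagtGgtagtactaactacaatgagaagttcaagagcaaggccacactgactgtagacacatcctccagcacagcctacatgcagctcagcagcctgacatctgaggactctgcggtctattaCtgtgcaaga
Ighv1-84 (against Ighv1-55): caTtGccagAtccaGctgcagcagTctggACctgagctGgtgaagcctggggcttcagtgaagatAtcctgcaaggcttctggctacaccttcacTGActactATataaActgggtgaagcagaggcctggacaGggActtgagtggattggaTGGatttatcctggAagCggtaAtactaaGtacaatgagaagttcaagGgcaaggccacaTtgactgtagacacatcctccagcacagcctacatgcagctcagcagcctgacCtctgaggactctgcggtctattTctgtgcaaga
Ighv1-11 (against Ighv1-76): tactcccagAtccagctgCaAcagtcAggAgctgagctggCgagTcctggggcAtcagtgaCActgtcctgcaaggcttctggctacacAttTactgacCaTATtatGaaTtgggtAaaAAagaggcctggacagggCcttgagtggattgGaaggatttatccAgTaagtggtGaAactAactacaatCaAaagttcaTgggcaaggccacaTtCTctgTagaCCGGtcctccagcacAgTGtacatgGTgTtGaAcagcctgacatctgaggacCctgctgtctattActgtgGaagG
Ighv8-12 (against Ighv8-13): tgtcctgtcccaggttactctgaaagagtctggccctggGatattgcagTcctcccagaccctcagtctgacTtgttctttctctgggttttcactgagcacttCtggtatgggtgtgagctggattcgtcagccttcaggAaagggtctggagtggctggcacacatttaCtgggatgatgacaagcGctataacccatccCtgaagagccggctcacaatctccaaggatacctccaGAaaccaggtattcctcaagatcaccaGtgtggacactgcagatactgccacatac
Ighv1-34 (against Ighv1-22): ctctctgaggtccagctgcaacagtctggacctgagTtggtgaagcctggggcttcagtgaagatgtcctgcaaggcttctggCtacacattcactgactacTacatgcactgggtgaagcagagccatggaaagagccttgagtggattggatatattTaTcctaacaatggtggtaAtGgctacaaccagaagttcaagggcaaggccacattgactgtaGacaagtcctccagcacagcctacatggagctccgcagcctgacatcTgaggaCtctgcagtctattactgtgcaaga
Within these stretches Ighv1-55 differed from Ighv1-62, a pseudogene, at 9 bases and 1 gap base, and Ighv1-34 differed from Ighv1-22 at 10 of 300 bases. Ighv8-12 differed from Ighv8-13 at 11 of 282 aligned bases. Ighv1-11 stood further from its closest relative, with 51 differing bases out of 294. The 31-base words of the annotated transcript were searched in all matched transcripts of the count files, on both strands. The share found in no other gene, member or not, was 98.8% for Ighv1-11, 62.8% for Ighv8-12, 44.7% for Ighv1-55, 26.8% for Ighv1-84 and 24.0% for Ighv1-34. Ighv1-84 is shown against Ighv1-55, but its closest relative over the exons is Ighv1-75 (96.3% alike).

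The whole libraries were checked before the segments were compared. They held 16380889 to 23102081 estimated counts, of which 6172 to 69026 fell on Ighv members. Notch-labelled libraries stood apart, with Pearson correlations across genes (log2 CPM) of 0.805 to 0.830 to any other library. Lymphoma libraries reached 0.878 to 0.895 with the remaining 3 groups, which correlated at 0.947 to 0.967 among themselves, and libraries of the same group at 0.970 to 0.983. Map3k14, which encodes NIK, was at 103 and 130 CPM in control libraries, 220 and 217 in the NF-kB-activated ones, 244 and 255 in doubly activated, 36.5 and 33.4 in Notch-labelled and 153 and 153 in lymphoma libraries. Notch2 went against the label of the Notch-labelled libraries, with 284 and 278 CPM against 652 and 690 in control. The allele covers only part of the gene, however. Notch2 was lower still in lymphoma libraries (155 and 178 CPM), which carry the same allele, and at 702 and 753 CPM in doubly activated ones. Heyl, a Notch target, was at 50.9 and 44.1 CPM in Notch-labelled libraries against 0.430 and 0.381 in control. It was at 23.3 and 25.6 CPM in doubly activated and 38.9 and 44.0 CPM in lymphoma libraries. The summed level of 10 B cell markers was 11620 to 12691 CPM in control, 3190 to 3403 in Notch-labelled and 5176 to 5370 in lymphoma libraries. By edgeR's test 8 of the 10 were lower in Notch-labelled than in control libraries, beside 29.5% of all genes. The other 2, Pax5 and Cd1d1, were higher, beside 34.2% of all genes. None of the 10 was at 0 in any library.

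Heavy chain use was broad in the control, the NF-kB-activated and the doubly activated libraries and nearly single in the Notch-labelled and lymphoma libraries. The effective number of segments, the inverse Simpson index of their shares, is the number of equally used segments that would give the same evenness. It was 47.2 and 50.6 in control libraries, 45.5 and 52.9 in the NF-kB-activated ones and 46.4 and 42.4 in doubly activated libraries. In the Notch-labelled libraries it was 1.16 and 1.14, and in lymphoma 1.17 and 1.18. The group means were 48.9 ± 2.44 (SD, n = 2), 49.2 ± 5.23, 44.4 ± 2.85, 1.148 ± 0.017 and 1.175 ± 0.0039 in the same order. NF-kB-activated libraries overlapped both control and doubly activated ones. Both doubly activated values lay below both control values, but the 2 groups overlapped with the exponential of Shannon entropy (63.2 and 60.2 against 63.1 and 66.4) and when segments 97% alike were joined. The Notch-labelled and lymphoma libraries lay far below these 6, which are called polyclonal below for their spread. No p is given for such a score over the members. Kappa light chain segments followed the same division, with effective numbers of 34.96 to 39.5 in the 6 libraries, 1.16 and 1.13 in Notch-labelled and 1.21 and 1.19 in lymphoma libraries.

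**Figure D1:**
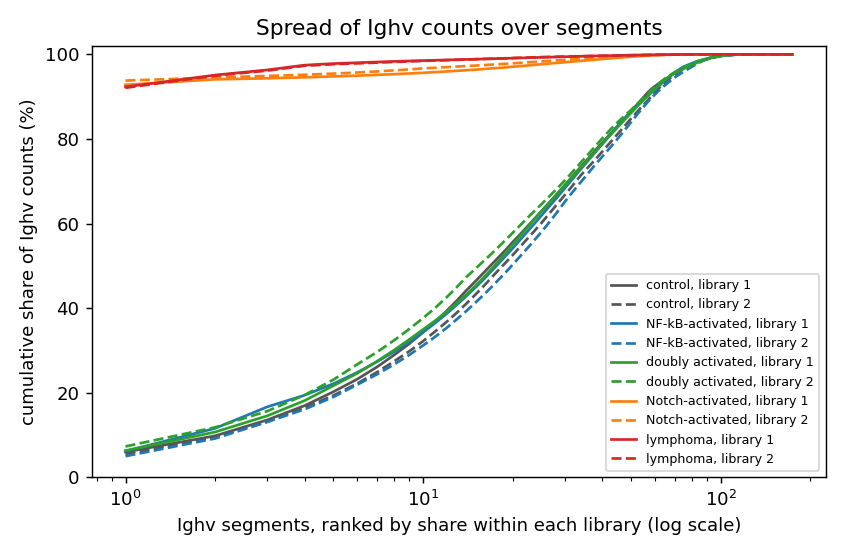
Cumulative share of Ighv estimated counts (%) against the number of segments taken in order of their share in that library (log axis), with 1 line per library, coloured by group, solid for library 1 and dashed for library 2. The 6 polyclonal lines start between 4.99% and 7.29% and reach 90% only at 56 to 60 segments, while the 4 Notch-labelled and lymphoma lines start at 92.1% to 93.8%.

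The breadth of the 6 polyclonal libraries did not rest on rare segments alone. To reach 50% of the Ighv counts took 16 to 20 segments, and 90% took 56 to 60. Between 115 and 120 members had at least 1 count and 84 to 93 had at least 10. Across all 6, 99 members were detected in every library and 23 held at least 1% in every library. Pseudogenes, which cannot encode a chain, took 0.951% to 1.48% of the counts. In the Notch-labelled libraries 72 and 65 members had at least 1 count but 10 and 11 had at least 10, and in lymphoma the figures were 84 and 88 members, with 46 and 41 at 10 or more. Lymphoma libraries held 69026 and 68010 Ighv counts and the polyclonal ones 8601 to 12306.

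Ighv1-26 was the most used segment in 5 of the 6 polyclonal libraries. It held 5.97% and 5.53% of Ighv counts in control libraries, 5.39% and 4.99% in the NF-kB-activated ones and 6.30% and 7.29% in doubly activated libraries. In the Notch-labelled libraries it held 0.132% and 0.256%, and in lymphoma 0.0503% and 0.0672%. The exception was NF-kB-activated library 1, led by Ighv1-55 at 6.17%. After Ighv1-26, control cells used Ighv1-53 (3.87% ± 0.13, SD, n = 2), Ighv1-55 (3.74% ± 0.12), Ighv1-80 (3.14% ± 0.33) and Ighv1-64 (3.12% ± 0.26). In NF-kB-activated cells the next were Ighv1-55, Ighv1-34, Ighv9-3 and Ighv3-6, and in doubly activated cells Ighv1-19, Ighv1-64, Ighv1-55 and Ighv9-3. The 5 leading segments of a group together held between 18.4% and 22.8% of a library's counts, so none of these libraries had a dominant few.

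The larger families held similar shares in the 3 polyclonal groups, while several smaller ones separated without overlap. Family shares were not tested. Ighv1, the largest family with 86 listed members, held 58.9% ± 0.25 in control, 56.0% ± 3.09 in NF-kB-activated and 59.8% ± 0.41 in doubly activated cells (SD, n = 2). Ighv5, whose 22 members lie near the D and J segments, held 10.5% ± 1.54, 10.03% ± 1.47 and 9.85% ± 0.61. The Ighv2 family held 5.73% to 6.75% over the 6 libraries. Ighv9 was at 3.70% and 3.41% in control libraries, 3.06% and 3.82% in the NF-kB-activated ones and 4.94% and 4.41% in doubly activated libraries, where both values lay above the other 4. Ighv10 was at 4.25% and 4.05% in NF-kB-activated libraries. It was at 2.82% and 3.17% in control and 2.72% and 3.45% in doubly activated libraries. Ighv6, Ighv7 and Ighv8 were lower in both doubly activated libraries than in every other polyclonal library. In the Notch-labelled libraries Ighv1 held 97.1% and 97.3%, and in lymphoma 94.8% and 94.6%, since the leading segment of each belongs to it.

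Along the locus, counts came from its whole length in the polyclonal libraries. The 174 members were split by distance from Ighj1, the J segment nearest the D segments, into 3 sets of 58. The nearest set (143 to 833 kb) held 26.0% to 30.5% of the counts, the middle set (838 to 1421 kb) 31.5% to 36.5% and the farthest set (1445 to 2570 kb) 33.2% to 41.5%. Ighv1-55 lies 1778 kb and Ighv1-11 1182 kb from Ighj1. The farthest set accordingly held 96.5% and 96.95% in Notch-labelled libraries, and the middle set 95.4% and 95.3% in lymphoma.

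**Figure D2:**
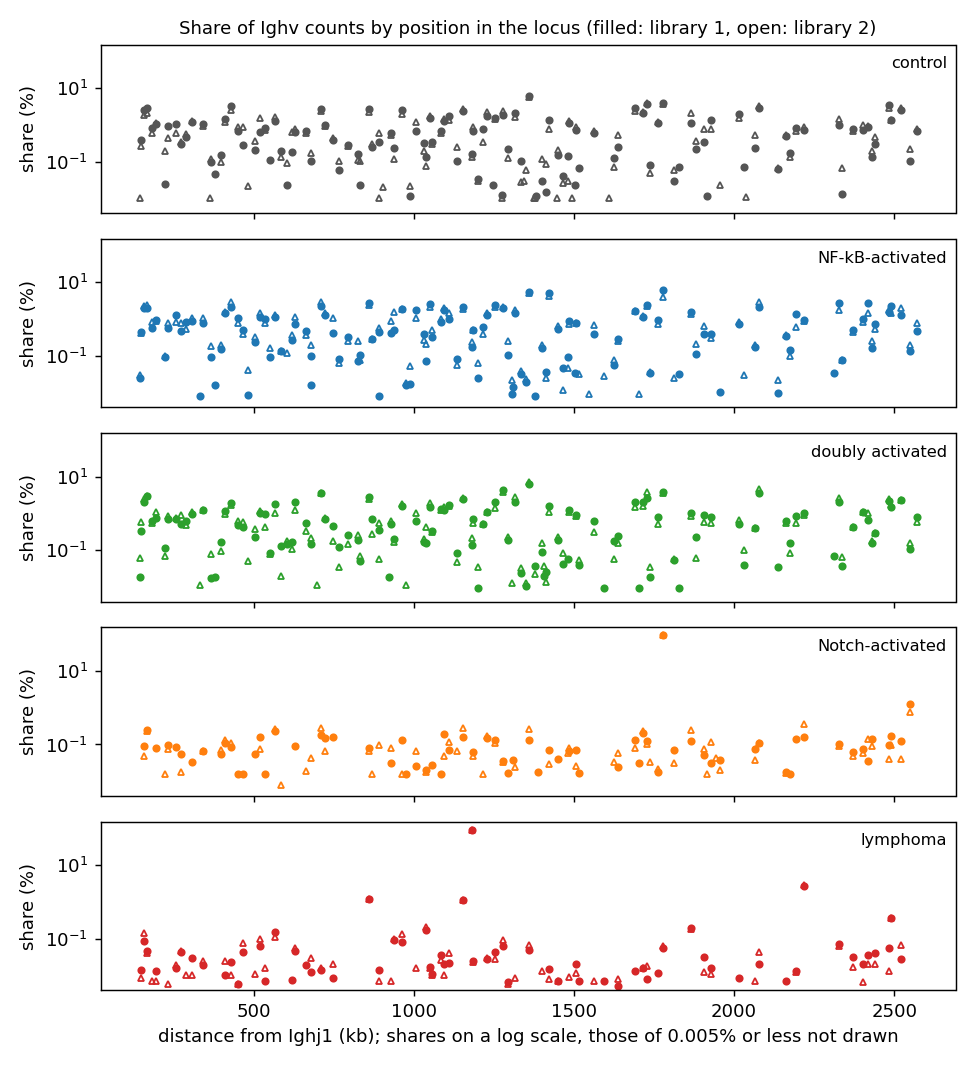
Share of Ighv estimated counts (%, log axis) of each segment against its distance from Ighj1 (kb), with 1 panel per group, filled circles for library 1 and open triangles for library 2, and shares of 0.005% or less not drawn. Points spread along the whole locus in every panel, and 1 segment stands far above the rest in the Notch-labelled panel (Ighv1-55, 1778 kb) and in the lymphoma panel (Ighv1-11, 1182 kb).

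How far usage differed between libraries was measured as the summed absolute difference of shares divided by 2, which is 0% for identical use and 100% for no segment in common. Libraries of the same group differed by 10.9% to 13.1% over the 3 polyclonal pairs. Control and doubly activated libraries differed by 13.7% to 16.0%, control and NF-kB-activated by 16.0% to 20.5%, and NF-kB-activated and doubly activated by 15.8% to 20.9%. Every pair from different groups thus exceeded every pair from the same group, with 3 pairs of the latter kind. Chi-square per degree of freedom between libraries of a group was 3.77 to 6.34, so the estimated counts differed by more than counting error even there. Splitting of reads among near-identical segments can also spread estimated counts, and its part was not tested.

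NF-kB activation was compared with control to ask which segments changed with the NIK allele alone. Ighv1-34 rose most clearly, and a further 4 segments passed the test, all higher. Ighv1-34 stood at 7.38 and 4.13 CPM in control libraries and 32.9 and 23.5 CPM in NF-kB-activated libraries, and at 9.52 and 6.28 CPM in doubly activated ones. Both NF-kB-activated libraries lay above all other libraries of the study. The rise was log2 2.30 ± 0.32 (SE), with adjusted p = 4.77e-04 in edgeR's quasi-likelihood test with Benjamini-Hochberg adjustment over 15583 genes. In all, 5 of the 97 tested members passed at adjusted p of 0.05, or 5.15%. Over all genes tested 15.3% passed, 8.72% higher and 6.6% lower, so the share of members called was below that background. In edgeR's main fit no member passed as lower, as was so with DESeq2. The fit of the compared groups alone gave 3 higher and 2 lower. With no filter beyond 1 count 5 were higher and 1 lower, as was so without both Notch-labelled libraries. In the main fit 13 members had an unadjusted p under 0.05 in either direction. With the Ighv total as library size, which compares shares, 5 segments rose and 3 fell. The median log2 change of the 97 was 0.17, beside 0 over all genes.

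Ighv12-3, the only member of its family above 10 counts here, stood at 1.23 and 0.653 CPM in control libraries and 3.25 and 8.64 CPM in NF-kB-activated libraries (log2 2.66, adjusted p = 0.00595 in edgeR's test). The 2 NF-kB-activated libraries were far apart. Without library 2 the change was 1.79 and edgeR's adjusted p was 0.0896. Ighv1-72 went from 5.23 and 7.72 to 17.1 and 9.74 CPM (log2 1.05, edgeR adjusted p = 0.0290). Leaving out NF-kB-activated library 1 (0.351) or control library 1 (0.148) ended the call, as did the fit of the compared groups alone (0.0923). Ighv1-76 went from 4.74 and 4.95 to 17.6 and 8.01 CPM (log2 1.40, edgeR adjusted p = 0.0492) and did not pass in 11 of 19 alternatives, among them those without NF-kB-activated library 1 (0.494), control library 1 (0.155), control library 2 (0.135) or any 1 doubly activated or lymphoma library (0.0598 to 0.0664). Ighv1-36, named after its values were seen because its mean of 3.56 CPM fell below the naming level of 5, went from 0.799 and 1.14 to 3.46 and 3.67 CPM. Its call (edgeR adjusted p = 0.0392) was lost in 10 of 19 alternatives, among them DESeq2 (0.0528). The adjusted p of edgeR was above the threshold when any 1 control or NF-kB-activated library was left out (0.0680 to 0.169), and also without any 1 doubly activated or lymphoma library (0.0517 to 0.0576).

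Some of these segments have near-identical relatives among which reads can be split. Ighv1-34 and the 4 members at least 95% alike to it summed to 67.7 and 63.5 CPM in control libraries, 105 and 84.4 in the NF-kB-activated ones and 97.2 and 92.2 in doubly activated libraries. Ighv1-22, the most alike, stood at 10.9 and 8.98 CPM in control libraries and 9.54 and 9.64 CPM in NF-kB-activated libraries. Of the 31-base words of Ighv1-72 only 1.91% are its own, and its closest relative Ighv1-62-3 is 99.2% alike, so its level is uncertain. The 4 members of that set summed to 41.3 and 46.8 CPM in control and 46.3 and 39.0 CPM in NF-kB-activated libraries, which overlap. Ighv12-3 has no such relative, its closest being 79.4% alike. The summed level of 10 neutrophil markers was 0.430 and 17.1 CPM in control against 435 and 128 CPM in NF-kB-activated libraries, and its part in these differences was not tested.

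Doubly activated cells were compared with control and with NF-kB-activated cells. Against control Ighv1-19 rose, from 9.53 and 12.9 CPM to 26.2 and 21.5 CPM (log2 1.09, edgeR adjusted p = 0.00349), and it stayed past the threshold in all 19 alternatives. NF-kB-activated libraries were at 12.7 and 11.6 CPM, within the control range. Of 97 members 5 passed, 4 higher and 1 lower. Over all genes 19.8% passed, 10.5% higher and 9.3% lower, above the 5.15% of members. With the Ighv total as library size 2 rose and 2 fell. Ighv1-19 is 96.3% alike to Ighv1-26, which stood at 31.7 and 29.8 CPM in control libraries and 37.6 and 41.0 CPM in doubly activated libraries and did not pass (edgeR adjusted p = 0.158).

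The other 4 calls were less stable. Ighv1-72 went to 12.2 and 15.1 CPM in doubly activated cells (log2 1.07, edgeR adjusted p = 0.0214), and its call was lost without control library 1 (0.108) or doubly activated library 2 (0.156). Ighv9-3, the main segment of its family, went from 14.1 and 12.7 to 21.1 and 20.2 CPM (log2 0.62, edgeR adjusted p = 0.0311). It lost its call in 5 of 19 alternatives, those without control library 2 or either doubly activated library (0.125 to 0.137), with the Ighv total as library size (0.116) and with DESeq2 (0.0704). Ighv1-5 went from 3.69 and 3.26 to 7.80 and 6.74 CPM (log2 1.06, edgeR adjusted p = 0.0407), a call lost in 9 of 19 alternatives. Among these were the fits without any 1 of the 4 compared libraries (0.0713 to 0.180) or without either NF-kB-activated library (0.0678 and 0.0679). Ighv1-15 went the other way, from 9.29 and 12.1 to 6.40 and 6.02 CPM (log2 -0.78, edgeR adjusted p = 0.0397). That call was lost in 11 of 19 alternatives, including those without control library 2 (0.223), doubly activated library 1 (0.116), doubly activated library 2 (0.203) or any 1 NF-kB-activated or Notch-labelled library (0.0599 to 0.0629).

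Against NF-kB-activated cells 3 of 97 members passed in doubly activated cells, 1 higher and 2 lower, where 13.9% of all genes passed, 6.62% higher and 7.28% lower. Ighv1-34 was lower by log2 -1.83 (edgeR adjusted p = 0.00311) and stayed past the threshold in all 19 alternatives. Ighv12-3 was lower by log2 -2.46 (edgeR adjusted p = 0.0113), but not past it without NF-kB-activated library 2 (0.142) or doubly activated library 2 (0.115). Ighv1-19 was higher by log2 0.97 (edgeR adjusted p = 0.0107), but not past it without either NF-kB-activated library (0.0562 and 0.0912) or doubly activated library 1 (0.0890). The set of 4 members at least 95% alike that holds Ighv1-19 summed to 48.7 and 47.3 CPM in control libraries. It summed to 80.6 and 63.3 CPM in NF-kB-activated and 73.4 and 68.8 CPM in doubly activated libraries, which overlap. That set also holds Ighv1-34, which went the other way. The overlap therefore does not show that the difference in Ighv1-19 ends when relatives are joined. Ighv1-26, also in the set, stood at 34.8 and 28.1 CPM in NF-kB-activated and 37.6 and 41.0 CPM in doubly activated libraries. The 3 comparisons share libraries, so their calls are not independent.

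**Figure D3:**
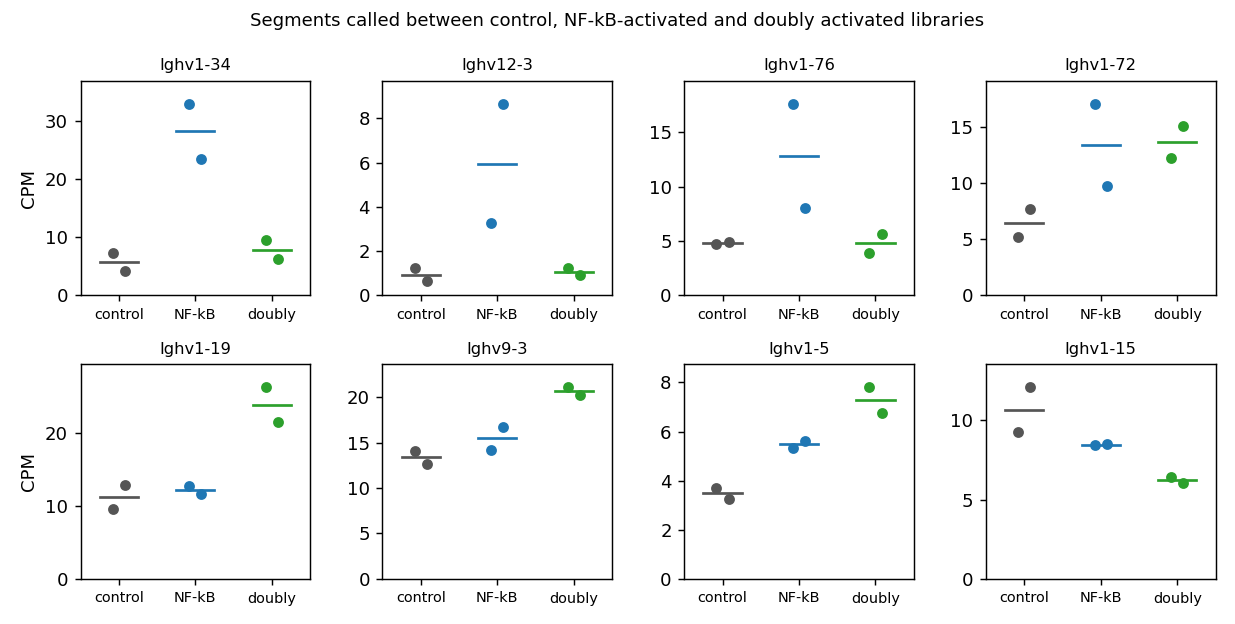
Level (TMM-scaled CPM, linear axes from 0 that differ between panels) of the 8 called segments of at least 5 CPM in control, NF-kB-activated (NF-kB) and doubly activated (doubly) cells, with 1 point per library and a line at the group mean. Ighv1-34 stands out with NF-kB-activated points of 32.9 and 23.5 CPM against 4.13 to 9.52 CPM in the other 4 libraries, while the NF-kB-activated points of Ighv12-3 lie far apart.

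In the Notch-labelled libraries Ighv1-55 rose and nearly all other segments fell. Ighv1-55 stood at 20.4 and 19.7 CPM in control libraries and 287 and 286 CPM in Notch-labelled libraries, where it held 92.8% (95% Wilson interval 92.1% to 93.4%) and 93.8% (93.2% to 94.4%) of Ighv counts. The 2 Notch-labelled libraries lay together, far above control (log2 3.84 ± 0.24, edgeR adjusted p = 2.38e-06). Whether both stem from the same animal is not stated in the labels. The SE and p therefore describe these libraries and not the genotype at large. Of 97 tested members 94 passed, 2 higher and 92 lower, beside 63.7% of all genes, 34.2% higher and 29.5% lower. The median log2 change of the members was -4.90, beside 0.07 over all genes. Ighv1-26 went from 31.7 and 29.8 CPM to 0.400 and 0.791 CPM (log2 -5.67, edgeR adjusted p = 3.21e-09). Of the 45 segments that held at least 0.5% in each polyclonal library, Ighv1-62-2, Ighv10-1 and Ighv2-3 had no count in either Notch-labelled library. No count of Ighv1-11, the lymphoma segment, was found there either, which allows up to 0.0485% and 0.0486% of the Ighv counts for counting error only.

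The other segment that rose was Ighv1-84, from 0.553 and 1.20 CPM in control to 3.95 and 2.27 CPM in Notch-labelled libraries (log2 1.81 ± 0.60, edgeR adjusted p = 0.0182). Its call was lost without control library 1 (0.105) or Notch-labelled library 1 (0.172). It held 1.28% and 0.745% of Ighv counts, the second place in both libraries. Ighv1-84 is 88.0% alike to Ighv1-55 over the exons, and the pair differ at 28 of the 300 bases shown above. Its closest relative is Ighv1-75, which is 96.3% alike, and only 26.8% of its 31-base words are its own, so its level is uncertain.

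Without Ighv1-55 the Notch-labelled libraries kept 445 and 382 Ighv counts, or 22.3 and 18.9 CPM, which was 4.08% of the control remainder on average. This remainder was spread over an effective number of 21.7 and 27.3 segments, below the 47.1 to 55.0 of the polyclonal libraries treated alike. Ighv1-84 made up 17.8% (14.5% to 21.6%) and 12.03% (9.15% to 15.7%) of it. The Ighv1 family made up 60.0% and 57.1%, close to the 51.4% to 56.9% of the polyclonal libraries. After Ighv1-84 the leading minor segments were Ighv5-4, Ighv14-2, Ighv1-52 and Ighv10-3 in library 1 and Ighv8-12, Ighv9-3, Ighv1-9 and Ighv14-2 in library 2, each with 12 to 21.8 counts. Apart from Ighv1-84 and Ighv14-2 the lists differed, and at such counts their order was not resolved. The 13 members at least 90% alike to Ighv1-55 held 15.8% and 18.2% of the remainder, and reads of Ighv1-55 assigned to them cannot be told apart from their own. Of the 3 most alike, Ighv1-62 had 0 and 2.66 counts, Ighv1-53 7.72 and 6.24, and Ighv1-64 6.74 and 6.68.

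In lymphoma Ighv1-11, a segment rarely used by the other libraries, took over the heavy chain counts. Its level was 0.835 and 1.18 CPM in doubly activated cells of the same genotype and 2948 and 3061 CPM in lymphoma. It rested on 15 and 18 counts in the doubly activated libraries, where it held 0.140% and 0.209%, and ranged from 0.131% to 0.233% over the 6 polyclonal libraries. In lymphoma it held 92.3% and 92.1% of Ighv counts. The change was log2 11.55 ± 0.15 (edgeR adjusted p = 2.27e-12), and both lymphoma libraries lay far above all others. Whether both stem from the same animal or tumour is not stated in the labels. The SE and p therefore describe these libraries and not lymphomas at large. Of 97 tested members 87 passed, 6 higher and 81 lower, beside 51.3% of all genes, 26.1% higher and 25.2% lower. The median log2 change was -3.39, beside 0.01 over all genes. Ighv1-26 went from 37.6 and 41.0 CPM to 1.62 and 2.25 CPM (log2 -4.34, edgeR adjusted p = 6.86e-09). Ighv7-3 was the only one of the 45 broadly used segments with no count in either lymphoma library.

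Beside Ighv1-11, 5 segments passed as higher in lymphoma than in doubly activated cells. Among them Ighv1-2 is annotated as a pseudogene, so its level does not stand for an encoded chain. Ighv8-12 went from 5.96 and 5.17 CPM to 89.0 and 95.5 CPM (log2 4.05 ± 0.19, edgeR adjusted p = 6.46e-09) and kept its call in all 19 alternatives. Ighv3-6 went from 17.0 and 13.8 to 39.1 and 39.6 CPM and Ighv1-9 from 15.03 and 14.3 to 35.9 and 38.3 CPM, log2 1.35 and 1.34. Ighv1-2 went from 0.947 and 2.36 to 5.64 and 7.04 CPM (log2 1.95, edgeR adjusted p = 0.00719), a call lost without doubly activated library 1 (0.0743) or lymphoma library 2 (0.0501). Ighv12-3 was at 1.22 and 0.916 against 2.91 and 3.23 CPM (log2 1.51, edgeR adjusted p = 0.0334), and was not past the threshold without any 1 of the 4 libraries compared (0.0819 to 0.159). With the Ighv total, most of it Ighv1-11, as library size, the last 4 of these segments had log2 changes below 0, while Ighv8-12 stayed higher. Ighv1-2 was not past the threshold in that setting (edgeR adjusted p = 0.363). Ighv1-81 did not pass, with 8.85 and 9.68 CPM in doubly activated and 11.8 and 11.9 CPM in lymphoma libraries (edgeR adjusted p = 0.280).

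**Figure D4:**
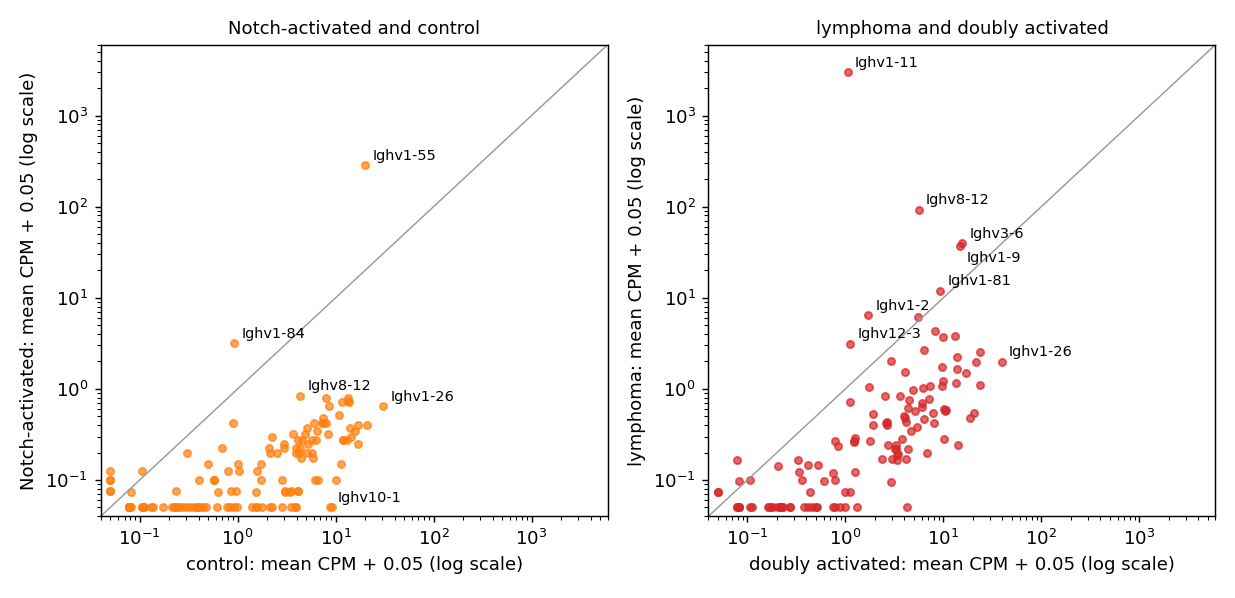
Level of each segment (TMM-scaled CPM, log axes, with 0.05 CPM added) in Notch-labelled against control cells (left) and in lymphoma against doubly activated cells (right), group means of 2 libraries, with a line of equal level. On the left Ighv1-55 and Ighv1-84 stand above the line, and on the right Ighv1-11 stands far above it with Ighv8-12 next, while most other segments lie below.

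Without Ighv1-11 the lymphoma libraries kept 5302 and 5375 Ighv counts, or 245 and 263 CPM, which was 47.0% of the doubly activated remainder on average. The make-up of this remainder was narrow and nearly the same in both libraries. Its effective number was 5.45 and 5.51. Ighv8-12 made up 36.3% (35.0% to 37.6%) in library 1 and 36.3% (35.1% to 37.6%) in library 2, Ighv3-6 15.9% and 15.1%, Ighv1-9 14.6% and 14.6%, and Ighv1-81 4.83% and 4.52%. These 4 together held 71.7% and 70.5% of the remainder, and the next in both libraries were Ighv8-8 and Ighv1-2. By family, Ighv8 made up 39.0% and 38.8%, Ighv1 32.8% and 32.0% and Ighv3 16.2% and 15.4%. The remainders of the 2 lymphoma libraries differed by 6.57% in use, below the 11.2% to 17.4% within the polyclonal groups, while those of the 2 Notch-labelled libraries differed by 32.0% at far fewer counts. Against the polyclonal remainders the lymphoma ones differed by 67.7% to 71.0% and the Notch-labelled ones by 40.2% to 49.7%.

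The sequence of Ighv1-11 bears on how this remainder can be read. No member is 90% alike to it, and the 3 closest, Ighv1-76, Ighv1-77 and Ighv1-84, are 82.7%, 81.6% and 80.3% alike. They had 25 and 14, 0 and 0, and 0 and 2.49 counts in lymphoma. Ighv8-12 and Ighv3-6 belong to other families, and Ighv1-9 and Ighv1-81 are 78.1% and 79.5% alike to Ighv1-11. The minor lymphoma segments are thus not its close relatives.

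**Figure D5:**
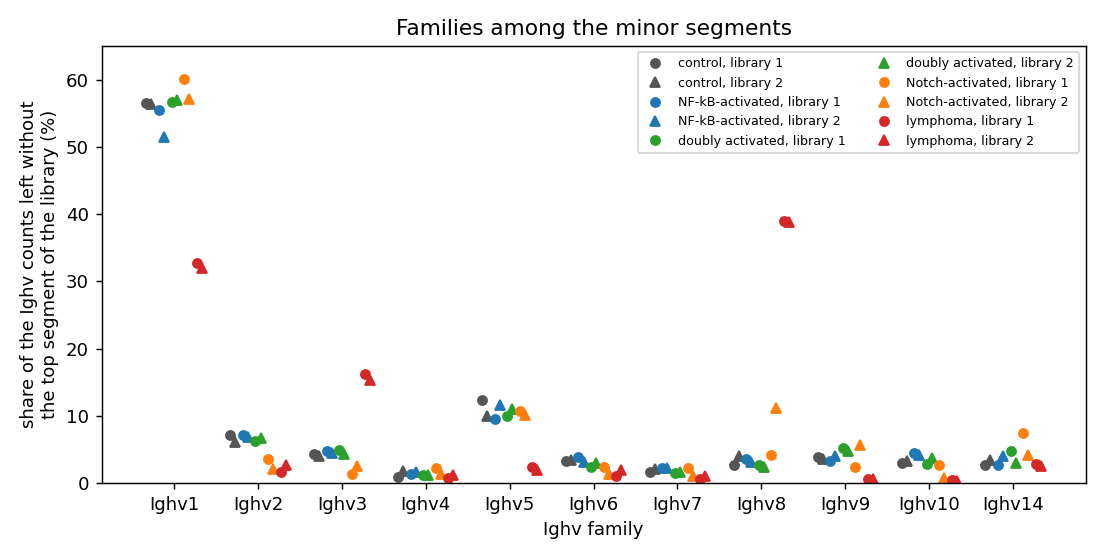
Share (%) of each Ighv family in the counts left after the leading segment of a library is taken out, with 1 point per library, coloured by group, circles for library 1 and triangles for library 2; families that never reach 2% are not drawn. Ighv1 is the largest family in the 6 polyclonal and 2 Notch-labelled libraries (51.4% to 60.0%), whereas in the 2 lymphoma libraries Ighv8 is (39.0% and 38.8%).

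The total Ighv level was then set beside that of the heavy chain constant genes, which are transcribed in the same mRNA. The total was 532 and 539 CPM in control libraries, 645 and 563 in the NF-kB-activated ones and 596 and 563 in doubly activated libraries. It was 309 and 305 CPM in Notch-labelled and 3193 and 3323 CPM in lymphoma libraries, 57.4% of control and 5.62-fold of doubly activated cells. In bulk RNA fewer cells of a type and less RNA per cell cannot be told apart. The 8 constant genes summed to 94.2% of control in Notch-labelled cells and 4.11-fold of doubly activated cells in lymphoma. Per 100 constant counts there were 9.39 to 10.3 Ighv counts in the polyclonal libraries, 5.81 and 6.14 in Notch-labelled and 12.7 and 14.1 in lymphoma libraries. Ighm, the constant gene of IgM, was at 5352 and 5504 CPM in doubly activated and 24364 and 22795 CPM in lymphoma libraries (log2 2.12, edgeR adjusted p = 3.15e-09). All 4 Ighj genes are listed at 0 in every library. The 10 plasma cell markers summed to 776 to 793 CPM in control, 1009 to 1166 in doubly activated, 1364 to 1454 in Notch-labelled and 3778 to 3846 in lymphoma libraries. In doubly activated cells 3 of 9 tested markers were higher and 3 lower than control, beside 10.5% and 9.3% of all genes. Their median log2 change was -0.08, beside 0 over all genes. Irf4 went from 242 and 197 to 426 and 565 CPM, and Tnfrsf13b from 251 and 236 to 127 and 137 CPM. Against doubly activated cells 8 of 9 tested markers were higher in lymphoma, beside 26.1% of all genes, with a median log2 change of 2.69, beside 0.01 over all genes, and their part in the Ighv total was not tested.

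Genes of V(D)J recombination and of the pre-B receptor were read as the machinery that makes the V join. Of 16 such genes 13 were tested. In Notch-labelled cells 6 rose and 6 fell against control, where 34.2% of all genes rose and 29.5% fell, and their median log2 change was -0.22, beside 0.07 over all genes. Dntt, the polymerase that adds bases without a template at the joins, stood at 0 and 0.218 CPM in control libraries and 34.5 and 44.0 CPM in Notch-labelled libraries. Rag1 and Rag2, the recombinase, were at 1.35 and 2.27 and at 1.20 and 2.13 CPM there, against at most 0.0544 and 0.381 CPM in control. These 3 genes are among the 6 that rose, and being near 0 in control they are given by level alone. Dntt and Rag1 were at most 0.293 and 0.0557 CPM in any library of the other groups. They thus entered the test through the Notch-labelled libraries, and the count of 6 includes them by that route. Vpreb1, Vpreb2 and Igll1, the surrogate light chain of pre-B cells, were at 0 in both Notch-labelled libraries, as in all others except for Vpreb2 at 0.0615 CPM in control library 1. In lymphoma 3 of the 13 rose and 3 fell against doubly activated cells, where 26.1% of all genes rose and 25.2% fell, so the share was near the background. Among those that rose was Vpreb3, an endoplasmic reticulum protein of B cells, from 12.3 and 10.01 to 252 and 214 CPM (log2 4.38, edgeR adjusted p = 2.80e-10). In NF-kB-activated cells 1 of the 13 passed against control (15.3% of all genes) and in doubly activated cells 2 did (19.8% of all genes), all lower, which is not above the background. The 10 T cell markers summed to 90.8 and 101.9 CPM at the lowest and highest in control and 159 and 182 CPM in Notch-labelled libraries. Of the 10, 5 passed as higher and 1 as lower, where 34.2% of all genes rose and 29.5% fell. Tcf7 went from 12.5 and 13.3 to 42.5 and 57.2 CPM, and was at 46.5 and 46.0 CPM in lymphoma. Cd4 went from 4.37 and 5.93 to 2.30 and 2.77 CPM. The 10 neutrophil markers summed to 0.430 and 17.1 CPM in control and to 69.8 and 69.97 CPM in Notch-labelled libraries. The part of either list in these levels was not tested.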

How the data were processed

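Total RNA of 10 sorted samples was sequenced, and the authors deposited 1 file per library with estimated counts and TPM of 88198 transcripts. Per the submitters' processing notes kallisto 0.44.0 and mm10 were used, and no transcript release is named in the sources used here. Per the file headers the deposited estimated counts are not normalized and the deposited TPM are corrected for effective length. Transcripts were matched by identifier to GENCODE M21, which left out 2167, summed per gene and rounded for testing. Shares use unrounded counts, and CPM are scaled by TMM. TPM served in an alternative.

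The test was the robust quasi-likelihood fit of edgeR 4.0.16 (R 4.3.3) on 10 libraries in 5 groups, 5 residual degrees of freedom, two-sided, after filterByExpr (minimum count 10, minimum total 15). This left 15583 genes and 97 members (92 V genes and 5 pseudogenes), and 77 members were not tested. Called means a Benjamini-Hochberg adjusted p under 0.05. A member high in 1 group alone can pass that filter through that group. The fit was tested on simulated data. Alternatives included DESeq2 1.42.0, other scalings and filters, a replicate block and fits without each library. Segments were named by rule: the leading and 5 most used, called ones of at least 5 CPM without overlap among the 3 polyclonal groups, the 5 largest minor ones, and the 3 most alike to a leading one. Other segments were named after their values were seen. Members and lists were chosen with earlier results of these data known. Identity between segments comes from pairwise alignment of exons, and reads of near-identical segments may be split by the counting. Intervals and floors (3 counts) cover counting error only, since reads carried no molecular identifiers known here.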

Additional observations from a re-analysis of the deposited data

Results flagged for a closer look

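In 3 segments the change against control differed between doubly activated and NF-kB-activated cells by a direct test of those 2 groups in edgeR, which share the control. For Ighv12-3 the change in doubly activated cells minus that in NF-kB-activated cells was log2 -2.461 (edgeR adjusted p = 0.0113). For Ighv1-34 it was log2 -1.83 (edgeR adjusted p = 0.00311), and this call was kept in all 19 alternatives. For Ighv1-19 it was log2 0.9706 (edgeR adjusted p = 0.0107). The calls of Ighv12-3 and Ighv1-19 were lost in 2 and 3 alternatives that each left out 1 library. The members at least 95% alike to Ighv1-34 or Ighv1-19, each set summed with that segment, overlapped between these 2 groups. Both sets hold Ighv1-34 and Ighv1-19, which differed in opposite directions. The overlap therefore does not show that either difference ends when relatives are joined. For Ighv1-34 the sums were 105 and 84.4 CPM in NF-kB-activated and 97.2 and 92.2 CPM in doubly activated libraries, and for Ighv1-19 80.6 and 63.3 CPM and 73.4 and 68.8 CPM. Neutrophil markers summed to 128 to 435 CPM in NF-kB-activated and 0.393 to 6.35 CPM in doubly activated libraries, and their part was not tested.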

How the results depend on the processing

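The counts of called segments among control, NF-kB-activated and doubly activated cells were small and moved with the setting, while those in Notch-labelled cells (84 to 94) and lymphoma (74 to 88) stayed within 1.5 times their reported values when each library was left out in turn. In NF-kB-activated cells against control the reported 5 became 8 with the Ighv total as library size and 2 to 5 with each library left out, lowest without NF-kB-activated library 1. In doubly activated cells against control the reported 5 became 1 to 6 with each library left out, lowest without doubly activated library 2. In the fit without either Notch-labelled library, an alternative chosen after seeing the data, it became 8. Doubly against NF-kB-activated cells gave 3, and 6 in the fit of the compared groups alone and in the one without the Notch-labelled libraries. The replicate block gave 3 calls in each of the 2 comparisons with control, but library numbers did not pair the samples (correlation of deviations -0.0730 to 0.0327 over pairs of groups). With the Ighv total as library size 4 segments higher in lymphoma changed sign. Ighv3-6 was at log2 -1.137, Ighv12-3 at -0.9695, Ighv1-9 at -1.15 and Ighv1-2 at -0.5546. Of these, Ighv1-2 was not past the threshold in that setting (edgeR adjusted p = 0.363). This setting divides by a total that is mostly Ighv1-11. The exponential of Shannon entropy gave effective numbers of 64.79 in control, 65.69 in NF-kB-activated, 61.74 in doubly activated, 1.643 in Notch-labelled and 1.6 in lymphoma libraries. Joining segments 97% alike gave 46.32 in control. From TPM, the effective number was 1.211 in Notch-labelled and 1.189 in lymphoma libraries, the leading share 90.85% and 91.61%, and the Ighv1 share 61.21% in control, 61.6% in doubly activated, 96.52% in Notch-labelled and 94.1% in lymphoma libraries. With segments of at least 10 counts the effective number was 1.064 and 1.168 and the leading share 96.95% and 92.46% in Notch-labelled and lymphoma libraries. With V genes alone lymphoma gave 1.17 and 92.39%. Without members 90% alike to Ighv1-55 the effective number of the Notch-labelled remainder was 18.35. Mean Ighv totals scaled by TMM were 535.3 CPM in control, 579.5 in doubly activated, 307.3 in Notch-labelled and 3258 in lymphoma libraries, against 530.3, 547.5, 328.2 and 3081 CPM without that scaling. Depth limits the Notch-labelled remainder most, where 3 counts are 0.674% and 0.784% of it.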
